A study of Mus musculus with 7 samples.

Results

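Glucocorticoid response genes were followed in skeletal cells sorted from the femurs of mice on a high fat or a low fat diet. The 10 genes were Fkbp5, Tsc22d3, Sgk1, Zbtb16, Klf9, Mt1, Mt2, Per1, Nr3c1 and Hsd11b1, chosen by name as known targets of the hormone, its receptor and the enzyme that supplies it, and each symbol matched 1 of the 42687 gene identifiers in the count table. Femurs of C57BL/6 mice were digested, and cells bearing CD24 and CD29, which the labels call skeletal stem cells, were isolated by flow sorting. The mice were 3 months old when the diets began and ate food with 60% fat (HFD, 3 libraries, numbers 2 to 4) or 10% fat (LFD, 4 libraries, numbers 1 to 4) for 4 weeks. The comparison asks which transcripts of the sorted cells differed between the diets. Whether each library stands for its own mouse is not said in the labels, and p-values then reflect only how these libraries scatter, part of which may be technical.

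Glucocorticoids are steroid hormones of the adrenal gland, and corticosterone is the main one in mice. The hormone enters the cell and binds the glucocorticoid receptor, the product of Nr3c1, which a chaperone complex built on Hsp90 holds ready in the cytoplasm. The loaded receptor moves to the nucleus and binds paired TGTTCT arms in DNA, and it raises genes such as Fkbp5 and Tsc22d3 in many tissues. Hsd11b1 encodes the enzyme that turns the inactive keto form of the steroid back into the active hormone inside the cell. In bone, excess glucocorticoid lowers the activity of osteoblasts.

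Total counts per library ranged from 17391613 to 24681838. The labels give no sex, and sex-linked transcripts separated the diets: the Y-linked gene Ddx3y had 1419 to 2069 counts in each HFD library and 0 to 3 in each LFD library, and Xist, the RNA of the inactive X chromosome, had 0 counts in each HFD library and 257 to 526 in each LFD library. The labels do not say whether the diets went to mice of different sex, and a mix-up of labels was not tested. Diet and sex therefore cannot be told apart in any difference below, and Tsc22d3 lies on the X chromosome. The sorting genes were present in both diets, Itgb1 (CD29) at 445.8 ± 59.8 CPM in HFD and 425.7 ± 57.85 CPM in LFD, and Cd24a (CD24) at 2077 ± 1161 CPM in HFD and 3471 ± 1448 CPM in LFD (SD, n = 3 and n = 4). The cartilage collagen Col2a1 measured 29740 ± 8844 CPM in HFD and 22450 ± 8855 CPM in LFD, while the red cell globin Hbb-bs, no transcript of skeletal cells, measured 31740 ± 21350 CPM in HFD and 55790 ± 9023 CPM in LFD. Endothelial markers held at most 0.00369% of the counts of any library. CPM here means counts scaled to the library total after TMM adjustment.

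The DNA around the start sites of some of these genes holds letters that the hormone receptor or the metal sensor can read. Start windows came from RefSeq tables of the GRCm38.p6 build, each with 250 bases before and 50 after a start. Those of 8 of the 10 genes were searched, 16 windows in all. Zbtb16 had no listed window, and windows on the chromosome of Nr3c1 were left out of the search. Shares of all windows below refer to the windows searched. Windows of Sgk1, Tsc22d3, Mt1 and Mt2 are shown. The Sgk1 window was chosen because it holds a complete receptor element. Tsc22d3 had a large difference between diets, and of its 3 windows only the one shown holds a TGTTCT arm. Fkbp5 had a larger difference, but its window holds no arm and is not shown. The Mt pair is shown because the windows of these neighbouring genes differ in their letters. Capitals mark the TGTTCT arm on either strand in Sgk1 and Tsc22d3, and the metal response core TGCACNC or TGCGCNC on either strand in Mt1 and Mt2. The windows lie at chr10:21993640-21993939 (plus strand, the fifth of 6 listed starts) for Sgk1, chrX:140600473-140600772 (minus strand, the last of 3 starts by coordinate) for Tsc22d3, chr8:94178839-94179138 (plus strand) for Mt1 and chr8:94172368-94172667 (plus strand) for Mt2.
Sgk1: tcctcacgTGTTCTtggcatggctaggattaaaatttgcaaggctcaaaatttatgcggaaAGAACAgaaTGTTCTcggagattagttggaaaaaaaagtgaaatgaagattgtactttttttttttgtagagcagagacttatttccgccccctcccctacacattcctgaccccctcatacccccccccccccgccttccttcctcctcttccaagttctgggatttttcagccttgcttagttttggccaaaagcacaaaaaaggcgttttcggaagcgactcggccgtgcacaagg
Tsc22d3: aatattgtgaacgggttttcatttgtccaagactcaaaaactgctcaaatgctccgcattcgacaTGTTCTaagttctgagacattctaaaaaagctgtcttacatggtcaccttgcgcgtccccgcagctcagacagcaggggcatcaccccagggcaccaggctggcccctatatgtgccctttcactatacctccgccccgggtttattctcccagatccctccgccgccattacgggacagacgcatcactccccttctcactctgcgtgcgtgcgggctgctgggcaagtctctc
Mt1: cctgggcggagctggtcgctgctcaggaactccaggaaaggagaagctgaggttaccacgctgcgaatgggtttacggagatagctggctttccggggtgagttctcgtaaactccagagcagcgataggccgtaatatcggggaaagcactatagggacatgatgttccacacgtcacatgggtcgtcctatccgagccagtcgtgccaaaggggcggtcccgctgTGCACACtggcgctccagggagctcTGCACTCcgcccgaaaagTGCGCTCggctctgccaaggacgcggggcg
Mt2: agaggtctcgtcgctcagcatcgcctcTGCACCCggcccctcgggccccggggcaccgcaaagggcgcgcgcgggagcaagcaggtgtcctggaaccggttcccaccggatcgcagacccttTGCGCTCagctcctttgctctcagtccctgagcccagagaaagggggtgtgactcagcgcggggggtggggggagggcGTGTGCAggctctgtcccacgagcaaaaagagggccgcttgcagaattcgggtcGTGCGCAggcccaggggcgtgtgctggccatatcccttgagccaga

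The complete palindrome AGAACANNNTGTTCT, which holds both arms, was found in the Sgk1 window, 189 bases before that start, and in 3 of all 32851 windows (0.00913%). At least 1 TGTTCT arm on either strand, arms inside the palindrome included, occurred in 4 of the 16 windows of the 8 genes. These were windows of Sgk1 and Tsc22d3, and 19% of all windows held such an arm. Mt1 held 3 metal response cores, at 23 bases before the start and at bases 3 and 21 from it, and Mt2 held 4. The core TGCACNC was present in 12.6% of all windows and TGCGCNC in 15.4%. The Fkbp5 window held no TGTTCT arm. The best match to the palindrome in the Mt1 window had 3 mismatches among its 12 fixed letters, a closeness reached by 14.5% of all windows. These matches describe letters in short windows and not binding.

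None of the 10 genes passed an adjusted p of 0.05 in edgeR's quasi-likelihood test, in which 5 of 14304 genes passed (0.035%, both directions). Of these 5, 4 were the sex-linked Ddx3y, Uty, Eif2s3y and Xist, and the other was C5ar1, a complement receptor. DESeq2 called Fkbp5 and Tsc22d3 higher in HFD, 2 of 10 genes where it called 1.7% of 16660 genes higher and 2.15% in both directions. By limma-voom 0 of the 10 were called (0.182% of all genes). All 10 passed the filter on low counts, and 9 had a positive log2 fold change of HFD over LFD, against 51.5% of all genes tested. The median log2 fold change was 0.58 over the 10 genes and 0.02 over all genes. An unadjusted p under 0.05 with a positive change was seen for 3 of the 10 genes (Fkbp5, Tsc22d3 and Mt1), against 5.18% of all genes. The groups did not overlap, with HFD above LFD, for 4 genes (Fkbp5, Tsc22d3, Mt1 and Hsd11b1), against 8.4% of all genes, and with HFD below LFD for 0 of the 10, against 3.47%. The 10 genes and the lists below were chosen with earlier results of these data known. The shares set beside them therefore describe and do not test.

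**Figure D1:**
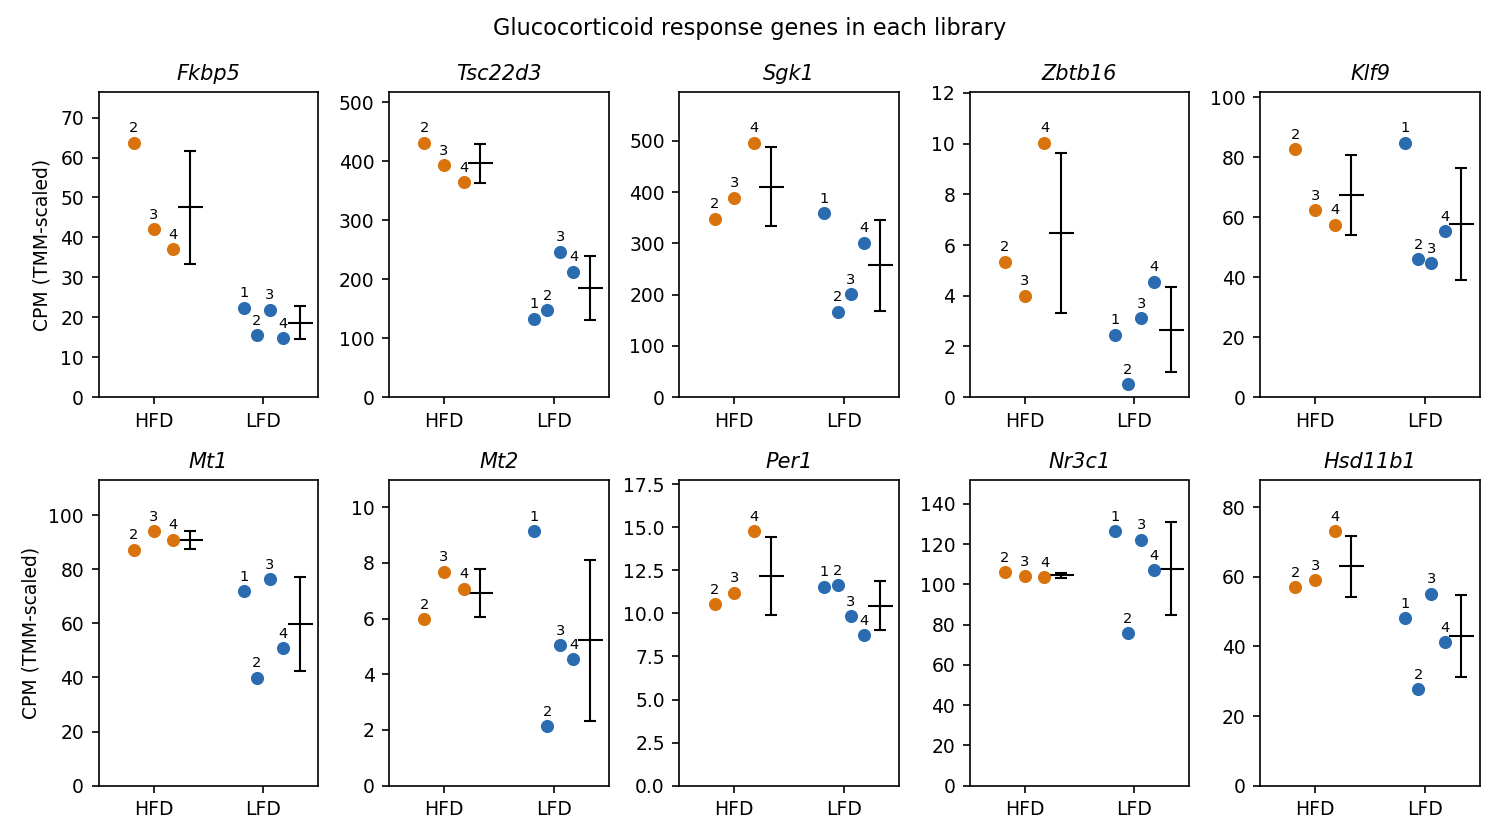
Each panel plots 1 gene, with CPM from 0 on the vertical axis, points numbered by library replicate, HFD libraries in orange and LFD libraries in blue, and black bars for the mean ± SD (n = 3 HFD, n = 4 LFD). The HFD points stand above all LFD points for Fkbp5, Tsc22d3, Mt1 and Hsd11b1, and the groups overlap for the other 6 genes.

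Fkbp5 had the lowest p of the 10 genes in edgeR. Fkbp5, a co-chaperone of Hsp90 that lowers the receptor's affinity for hormone and so acts as feedback, lies on chromosome 17 (28399094 to 28517527, mm10). It measured 63.7, 42.0 and 37.0 CPM in HFD 2, 3 and 4, against 22.4, 15.5, 21.9 and 14.7 CPM in LFD 1 to 4. The lowest HFD library stood above the highest LFD library, and HFD 2 stood apart from the other HFD libraries. The log2 fold change was 1.35 ± 0.28 (SE, 95% interval 0.71 to 1.99), with an adjusted p of 0.236 in edgeR (rank 72 of 14304 genes), 0.00408 in DESeq2 and 0.0682 in limma-voom. Without HFD 2 the log2 fold change was 1.08 (adjusted p = 0.806 in edgeR).

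Tsc22d3, also called GILZ, encodes a leucine zipper protein through which glucocorticoids damp inflammatory signalling (X chromosome, 140539528 to 140600659). It measured 431, 393 and 364 CPM in HFD 2, 3 and 4, against 133, 148, 246 and 213 CPM in LFD 1 to 4. All HFD libraries stood above all LFD libraries, and the spread within LFD was wider than within HFD. The log2 fold change was 1.10 ± 0.27 (SE, 95% interval 0.49 to 1.71), with an adjusted p of 0.290 in edgeR (rank 158), 0.0130 in DESeq2 and 0.0766 in limma-voom. Its counts per Nr3c1 count in the same library, a ratio that library scaling does not touch, were 4.07, 3.77 and 3.52 in HFD 2, 3 and 4, against 1.05, 1.95, 2.02 and 1.99 in LFD 1 to 4. The same ratio for Fkbp5 was 0.601, 0.404 and 0.358 in HFD, against 0.178, 0.205, 0.1795 and 0.138 in LFD. For Sgk1 it was 3.29, 3.74 and 4.80 in HFD, against 2.84, 2.21, 1.65 and 2.81 in LFD. All 3 ratios were higher in every HFD library than in any LFD library. The ratio was taken for these 3 genes only, and the share of all genes that separate by it was not computed. Nr3c1, the denominator, was highest in LFD 1 (126.3 CPM), which lowers the ratios of that library.

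In CPM, Sgk1, a kinase induced by serum and glucocorticoids that acts on ion channels and cell survival, overlapped between the diets (chromosome 10, 21882184 to 21999903). It measured 348, 389 and 496 CPM in HFD 2, 3 and 4, against 359, 167, 201 and 301 CPM in LFD 1 to 4. LFD 1 lay above HFD 2, and the other LFD libraries lay below every HFD library. The log2 fold change was 0.68 ± 0.31 (95% interval -0.04 to 1.39, adjusted p = 0.681 in edgeR).

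Zbtb16 (PLZF) and Klf9 are zinc finger transcription factors that the hormone induces in many cells. Zbtb16 (chromosome 9, 48654297 to 48836222) had few reads, 153, 83 and 210 counts in HFD 2, 3 and 4, against 63, 8, 50 and 92 in LFD 1 to 4. It measured 6.46 ± 3.16 CPM in HFD and 2.65 ± 1.68 CPM in LFD (SD, n = 3 and n = 4), with a log2 fold change of 1.28 whose 95% interval ran from -0.46 to 3.02. Without HFD 4 it was 0.82. LFD 4 lay above HFD 3, so a difference of this size was not separable from the spread between libraries. Klf9 (chromosome 19, 23141226 to 23168134) measured 82.7, 62.3 and 57.6 CPM in HFD 2, 3 and 4, against 84.8, 45.9, 44.7 and 55.4 CPM in LFD 1 to 4. LFD 1 held the highest value of all, and the log2 fold change was 0.23 ± 0.27 (adjusted p = 0.855 in edgeR), 0.05 without HFD 2 and 0.48 without LFD 1.

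Mt1 and Mt2 encode metallothioneins, small cysteine-rich proteins that bind zinc and copper and respond to metals as well as to glucocorticoids. They are neighbours on chromosome 8, Mt2 at 94172664 to 94173568 and Mt1 at 94179082 to 94180327. Mt1 measured 87.2, 94.0 and 90.9 CPM in HFD 2, 3 and 4, against 71.95, 39.97, 76.3 and 50.8 CPM in LFD 1 to 4. The HFD libraries lay within a narrow band above all LFD libraries, and the log2 fold change was 0.60 ± 0.25 (95% interval 0.03 to 1.18, adjusted p = 0.646 in edgeR). Mt2 measured 5.98, 7.68 and 7.07 CPM in HFD 2, 3 and 4, against 9.13, 2.13, 5.04 and 4.55 CPM in LFD 1 to 4. LFD 1 had the highest Mt2 value and LFD 2 the lowest, so the diets overlapped (log2 fold change 0.40, 95% interval -0.83 to 1.64). It was 0.14 without LFD 2 and 0.82 without LFD 1. The ratio of Mt2 to Mt1 counts was 0.0685, 0.0817 and 0.0778 in HFD 2, 3 and 4, against 0.127, 0.0533, 0.0661 and 0.0896 in LFD 1 to 4. The genes are similar in sequence, and Mt2 shares 432 exon bases with Gm45774 on the opposite strand, so with the counting strand not given their split is uncertain.

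Per1, a repressor of the circadian clock that glucocorticoids induce quickly, measured 10.5, 11.2 and 14.8 CPM in HFD 2, 3 and 4, against 11.5, 11.7, 9.84 and 8.75 CPM in LFD 1 to 4 (chromosome 11, 69095217 to 69109960). Only HFD 4 stood above the LFD libraries. The log2 fold change was 0.22 ± 0.29 (95% interval -0.46 to 0.90, adjusted p = 0.872 in edgeR), and 0.06 without HFD 4 or 0.14 without LFD 4.

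The receptor and the enzyme that supplies its hormone complete the 10 genes. Nr3c1 (chromosome 18, 39410545 to 39519421) measured 105.9, 104.1 and 103.5 CPM in HFD 2, 3 and 4, against 126.3, 75.7, 122.1 and 107.1 CPM in LFD 1 to 4. The HFD values lay close together inside the LFD range. The log2 fold change was -0.04 ± 0.22 with a 95% interval of -0.54 to 0.45, which spans changes of that size in either direction. Hsd11b1 (chromosome 1, 193221634 to 193264075), which reactivates the hormone, measured 57.04, 58.9 and 73.0 CPM in HFD 2, 3 and 4, against 48.1, 27.6, 55.15 and 41.1 CPM in LFD 1 to 4. Its groups did not overlap, but HFD 2 lay close to LFD 3, and the log2 fold change was 0.55 ± 0.26 (95% interval -0.04 to 1.14, adjusted p = 0.683 in edgeR).

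**Figure D2:**
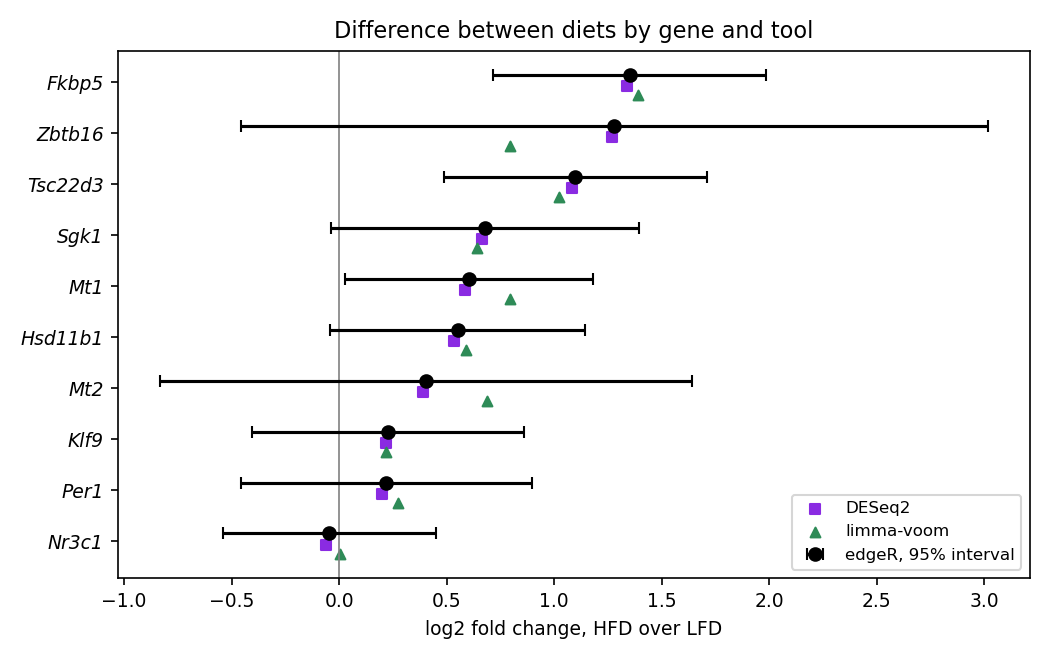
The horizontal axis gives the log2 fold change of HFD over LFD for each of the 10 genes, with edgeR's estimate and 95% interval in black, DESeq2 as squares and limma-voom as triangles. The edgeR intervals of Fkbp5, Tsc22d3 and Mt1 lie above 0, those of the other 7 genes include it, and Nr3c1 sits at -0.04.

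Per length, Sgk1, Tsc22d3 and Mt1 were the most abundant of the 10 transcripts. Their mean levels over the 7 libraries were 65.9, 63.4 and 58.6 CPM per kilobase of merged exons, with overlapping ranges. Below a gap came Nr3c1 at 13.8, Klf9 at 12.9, Hsd11b1 at 12.1 and Mt2 at 10.1 CPM per kilobase. Of the 588 merged exon bases of Mt2, 432 are shared with Gm45774 on the opposite strand. With the counting strand not given, reads over these bases may not be counted for Mt2, and its place in the order is uncertain. Fkbp5 at 3.28, Per1 at 1.99 and Zbtb16 at 0.8115 CPM per kilobase closed the order. The order differed by diet: Tsc22d3 stood at 91.2 CPM per kilobase in HFD, above Sgk1 at 83.85, and at 42.6 in LFD, below Sgk1 at 52.4 and Mt1 at 47.95. Hsd11b1, Klf9 and Nr3c1 stood at 14.8, 14.0 and 13.6 CPM per kilobase in HFD, and at 10.1, 11.98 and 14.0 in LFD. The ranges of each pair of neighbours in this order overlapped, except for Mt1 and Nr3c1. Merged exons overstate the length of transcripts with many forms, and with the longest annotated transcript as the length Fkbp5 stood at 8.05 and Hsd11b1 at 26.1 CPM per kilobase.

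The genes did not share a single order of libraries. HFD 2 was highest for Fkbp5 and Tsc22d3, HFD 4 for Sgk1, Zbtb16, Per1 and Hsd11b1, HFD 3 for Mt1, and LFD 1 for Klf9, Mt2 and Nr3c1. LFD 2, the library with the fewest counts, was lowest for 6 of the 10 genes and lay above a gene's own mean for 1 of them (Per1). The lowest value fell in LFD 4 for Fkbp5 and Per1, in LFD 1 for Tsc22d3 and in LFD 3 for Klf9. Without LFD 2 the log2 fold change was 0.45 for Mt1, 0.39 for Hsd11b1 and 0.52 for Sgk1.

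The genes whose log2 CPM followed Fkbp5 most closely over the 7 libraries were Ust, Tmem176b, Gas6, Tmem176a and Prr13, by a root mean square difference of 0.191 to 0.263 in log2 units among 8991 genes with at least 8 CPM. For Tsc22d3 they included Ethe1, Ap1s2, Tcn2 and Arhgap31, with differences of 0.167 to 0.197. The profiles of Fkbp5 and Tsc22d3 had an SD of 0.78 and 0.68 in the same units.

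A wider list of genes that glucocorticoids induce elsewhere had mixed values. Of 33 tested members of 36 listed, 21 were higher in HFD (51.5% of all genes) and 12 lower. The median log2 fold change was 0.42, and 0 passed edgeR's adjusted threshold. An unadjusted p under 0.05 was seen for 9 higher and 3 lower members (5.18% and 2.35% of all genes). DESeq2 called 2 higher, Agt and Lcn2, where it called 1.7% of all its genes higher. Agt, the precursor of angiotensin, measured 111.6, 90.3 and 68.4 CPM in HFD 2, 3 and 4, against 27.5, 35.96, 26.3 and 26.8 CPM in LFD 1 to 4 (log2 fold change 1.63 ± 0.23, adjusted p = 0.1099 in edgeR and 0.0299 in limma-voom). Every HFD library lay above every LFD library, as for 11 of the 33 members (8.4% of all genes). With HFD below LFD, the groups did not overlap for 2 of the 33 (3.47% of all genes). Lcn2, a siderophore binding protein that is also in the granulocyte marker list, had a log2 fold change of 1.99 ± 0.53, Angptl4, a lipase inhibitor, 1.93 ± 0.62, and the transglutaminase Tgm2 0.58 ± 0.19. Among the members with lower values were Bcl6 (-0.90) and Foxo3 (-1.03), transcription factors with an unadjusted p under 0.05.

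Genes that glucocorticoids lower in bone or immune cells also had higher values in HFD. Of 15 tested, 13 were higher (51.5% of all genes) and the median log2 fold change was 1.22. In edgeR 0 passed the adjusted threshold, while 6 higher and 0 lower members had an unadjusted p under 0.05 (5.18% and 2.35% of all genes), and DESeq2 called Cxcl2 alone (2.15% of all genes). The osteocalcin gene Bglap measured 673.6 ± 317.3 CPM in HFD and 278.8 ± 106.4 CPM in LFD (SD, n = 3 and n = 4), with overlapping groups. The chemokine Cxcl2 measured 31.8 ± 17.9 CPM in HFD and 1.64 ± 2.03 CPM in LFD. The gelatinase Mmp9 had a log2 fold change of 2.82 ± 0.97 and the cytokine Il1b 2.76 ± 0.95. Neutrophils and monocytes express the last 3 genes, and the 15 granulocyte markers had a median log2 fold change of 2.28, whose part in these values was not tested.

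Receptor chaperones and cofactors centred on 0. Of 18 tested, 7 were higher (51.5% of all genes) and 11 lower. The median log2 fold change was -0.01, and 0 passed edgeR's adjusted threshold. Hsp90ab1, a form of Hsp90, measured 736.6, 709 and 498 CPM in HFD 2, 3 and 4, against 433.6, 321, 347 and 471.5 CPM in LFD 1 to 4, and was the only member of this list at an unadjusted p under 0.05 (log2 fold change 0.72 ± 0.26, adjusted p = 0.552). An unadjusted p under 0.05 with a positive change was seen for 5.18% of all genes. The groups did not overlap, with HFD above LFD, for Hsp90ab1 alone, 1 of 18 (8.4% of all genes). With HFD below LFD they did not overlap for Bag1 alone, also 1 of 18 (3.47% of all genes). The other Hsp90 form, Hsp90aa1, measured 125.2 ± 11.7 CPM in HFD and 149.3 ± 18.01 CPM in LFD (SD, n = 3 and n = 4), with overlapping groups and a log2 fold change of -0.25 ± 0.19. The co-chaperones Fkbp4 and Bag1 had log2 fold changes of 0.41 and -0.41, and the coactivator Ep300 0.43.

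Genes of steroid supply and related receptors ranged widely in level. Of 8 tested, 5 were higher (51.5% of all genes) and 3 lower, and 0 had an unadjusted p under 0.05 in edgeR. Nr3c2, the mineralocorticoid receptor, which also binds corticosterone, measured 2.62, 2.56 and 2.58 CPM in HFD 2, 3 and 4, against 14.98, 3.57, 1.93 and 11.7 CPM in LFD 1 to 4. LFD 1 and LFD 4 stood above all other libraries, and LFD 3 lay below every HFD library (log2 fold change -1.64 ± 0.76, adjusted p = 0.683 in edgeR). H6pd, which supplies the cofactor for Hsd11b1, had a log2 fold change of 0.34 ± 0.29, and Abcb1a, a pump that exports steroids, 1.67 ± 1.60. Serpina6, the corticosteroid binding globulin, had 45, 39 and 22 counts in HFD 2, 3 and 4, against 0, 0, 0 and 13 in LFD 1 to 4. Hsd11b2, the enzyme that inactivates the hormone, had 14 counts over all libraries together and was not tested.

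Other genes of the metal response gave values around the metallothioneins. Of 9 tested, 6 were higher (51.5% of all genes) and 3 lower, and the median log2 fold change was 0.30. In edgeR 0 passed the adjusted threshold, while 1 had an unadjusted p under 0.05. This was the zinc importer Slc39a14 (log2 fold change 0.58 ± 0.25), whose groups overlapped. An unadjusted p under 0.05 with a positive change was seen for 5.18% of all genes. The zinc exporter Slc30a4 had 0.75 ± 0.37, the iron exporter Slc40a1 0.44 and the heme oxygenase Hmox1 0.55. Slc30a1, a target of the metal sensor Mtf1, had -0.54 and Mtf1 itself -0.26.

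Clock genes, which the hormone also reaches through Per1, pointed in both directions. Of 17 tested, 12 were higher (51.5% of all genes) and 5 lower. The median log2 fold change was 0.50, and 0 passed edgeR's adjusted threshold. An unadjusted p under 0.05 was seen for Nfil3, higher, and Nr1d1, lower (5.18% and 2.35% of all genes). Nfil3, a repressor in the clock's output, had a log2 fold change of 0.74 ± 0.25. Its groups did not overlap, as for 4 of 17 members with HFD above LFD (8.4% of all genes). Nr1d1 (REV-ERB alpha) measured 62.95, 32.6 and 52.4 CPM in HFD 2, 3 and 4, against 175.7, 90.96, 54.5 and 121.9 CPM in LFD 1 to 4, and its groups overlapped. The clock output gene Dbp measured 6.26, 5.07 and 4.30 CPM in HFD 2, 3 and 4, against 13.5, 5.58, 7.53 and 18.6 CPM in LFD 1 to 4. For both genes LFD 1 and LFD 4 were the highest libraries, and the log2 fold change was -1.17 ± 0.41 for Nr1d1 and -1.12 ± 0.49 for Dbp. The photolyase-like repressor Cry2 had 0.49 ± 0.24. The labels do not give the hour of collection.

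Immediate early and dissociation genes, which tissue digestion also induces, had positive log2 fold changes for 24 of 26 members (51.5% of all genes). The median was 0.33, and 0 passed edgeR's adjusted threshold. The groups did not overlap, with HFD above LFD, for 2 of 26 members (8.4% of all genes), and with HFD below LFD for 0 (3.47%). Hsph1, a heat shock chaperone, had 0.58 ± 0.23 and was the sole member at an unadjusted p under 0.05 (5.18% of all genes, higher). Nr4a1, Egr2 and Ccn2, early genes of signalling and mechanical load, had 0.64, 0.88 and 0.75. Sgk1 and Per1 are also early genes in many cells, and the part of handling in their values was not tested.

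**Figure D3:**
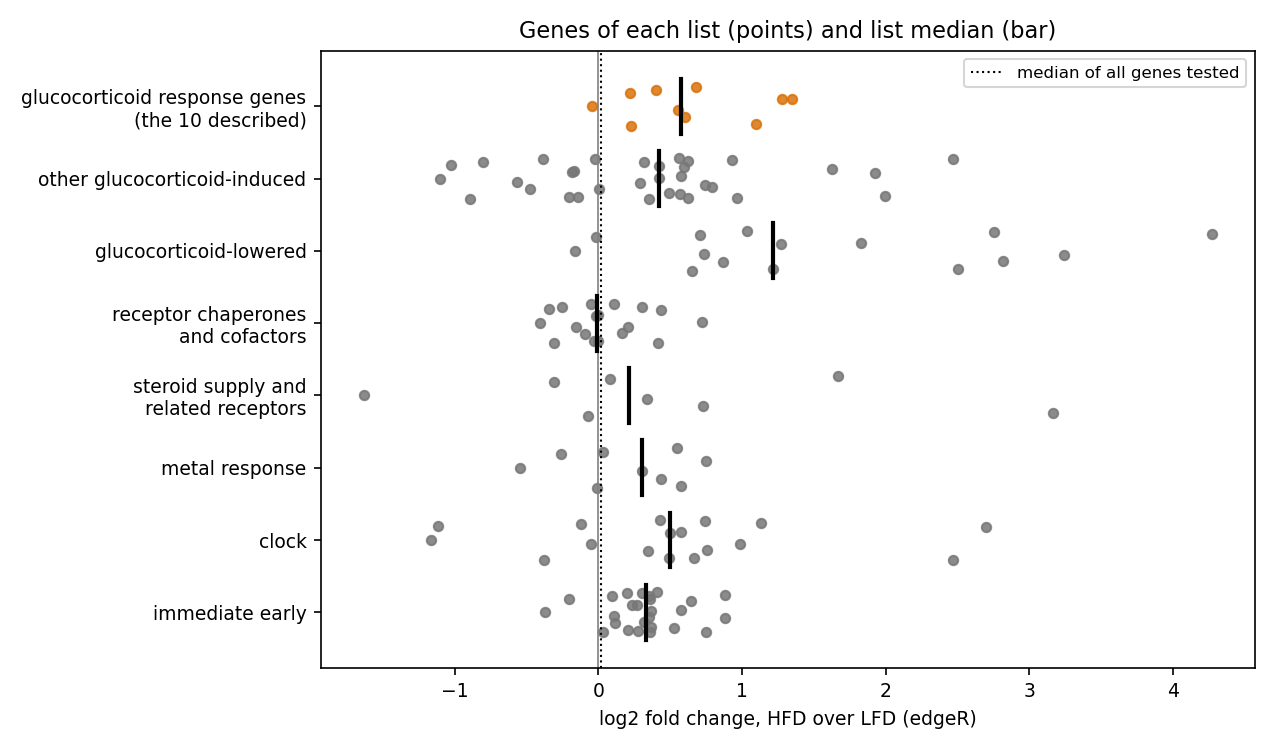
Points give the log2 fold change of HFD over LFD in edgeR for each tested gene of 8 lists, bars give list medians, and the dotted line the median of all genes (0.02). The 10 glucocorticoid response genes (orange) have a median of 0.58 and the glucocorticoid-lowered list 1.22, while receptor chaperones and cofactors sit at -0.01.

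The shares of counts in markers of other cells differed between the diets beside these genes. Bulk values cannot tell fewer cells of a type from less RNA per cell. The 15 granulocyte markers together held 1.03% to 1.62% of counts in HFD and 0.107% to 0.550% in LFD, and all 15 had a positive log2 fold change. The 13 monocyte and macrophage markers held 0.220% to 0.231% in HFD and 0.04965% to 0.102% in LFD, and 11 were higher and 2 lower in HFD. Lyz2, the most abundant of them, measured 1732 CPM in HFD and 345.2 CPM in LFD. Vcam1, the next, measured 309.9 CPM in HFD and 319 CPM in LFD, with overlapping groups. The share without Lyz2 was not computed. The 10 reticular stroma markers, led by Cxcl12, held 0.1745% to 0.357% in HFD and 0.0487% to 0.0731% in LFD. The 14 erythroid markers held 2.91% to 11.6% in HFD and 10.95% to 15.9% in LFD. The first 3 of these shares did not overlap between the diets. None of the markers in these 4 lists was at 0 in a whole group, while the T and NK markers Cd3e, Cd3g and Cd8a and the adipocyte markers Plin1, Cidec, Lep and Cfd were at 0 in at least 1 group.

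**Figure D4:**
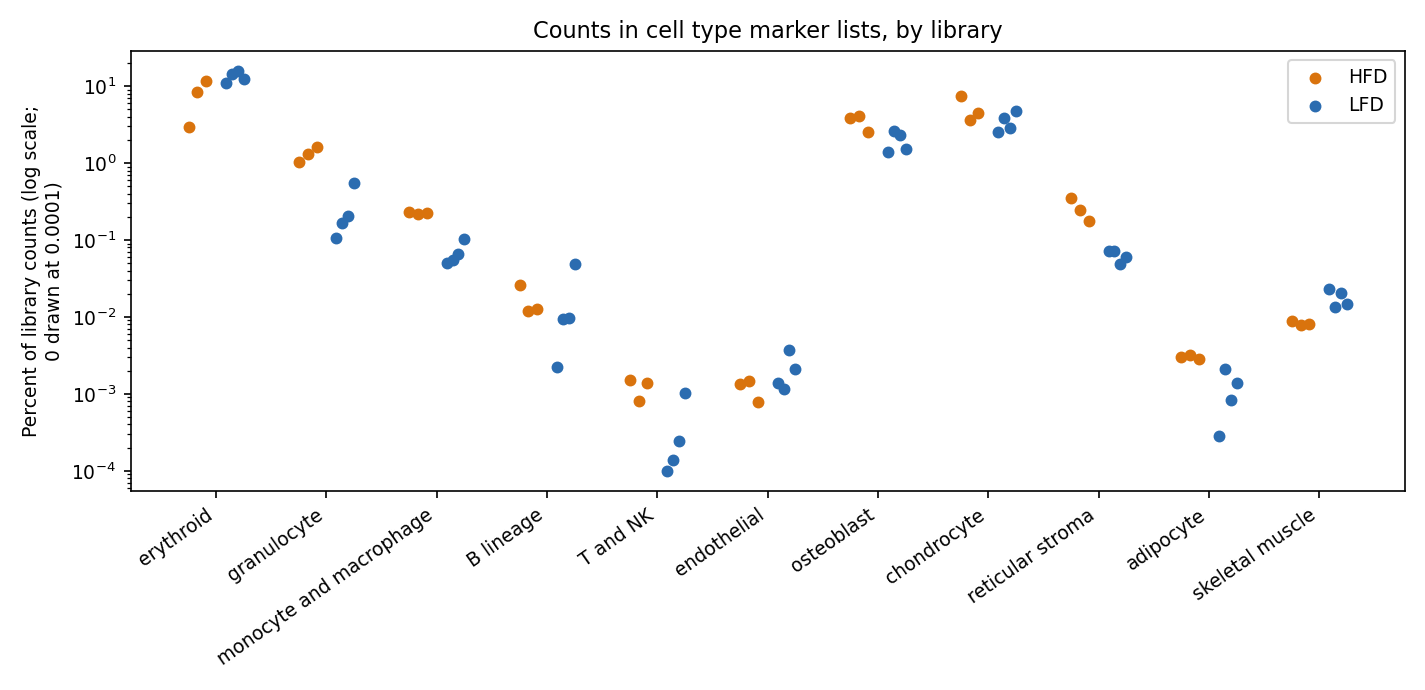
The vertical axis (log scale) gives the percent of a library's counts in each of 11 marker lists, with HFD libraries in orange to the left of LFD libraries in blue. Granulocyte shares are 1.03% to 1.62% in HFD and 0.107% to 0.550% in LFD, and reticular stroma shares 0.1745% to 0.357% in HFD and 0.0487% to 0.0731% in LFD.

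The estimates for Fkbp5 and Tsc22d3 depended on which of these shares entered the model beside diet. With the granulocyte share, the log2 fold change was 2.11 ± 0.59 for Fkbp5 and 0.51 ± 0.60 for Tsc22d3. With the reticular stroma share, it was 0.43 ± 0.85 for Fkbp5 and 1.64 ± 0.85 for Tsc22d3. With the erythroid share, it was 0.94 for Fkbp5 and 1.07 for Tsc22d3. The errors were larger with the granulocyte and reticular stroma shares, which do not overlap between the diets. The adjusted p-values of both genes in edgeR lay between 0.9856 and 0.9997, and the part of cell mixture in the differences cannot be told apart from diet in these libraries. With the erythroid and granulocyte genes taken out of the table before scaling, the log2 fold change was 1.36 for Fkbp5 and 1.10 for Tsc22d3.

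**Figure D5:**
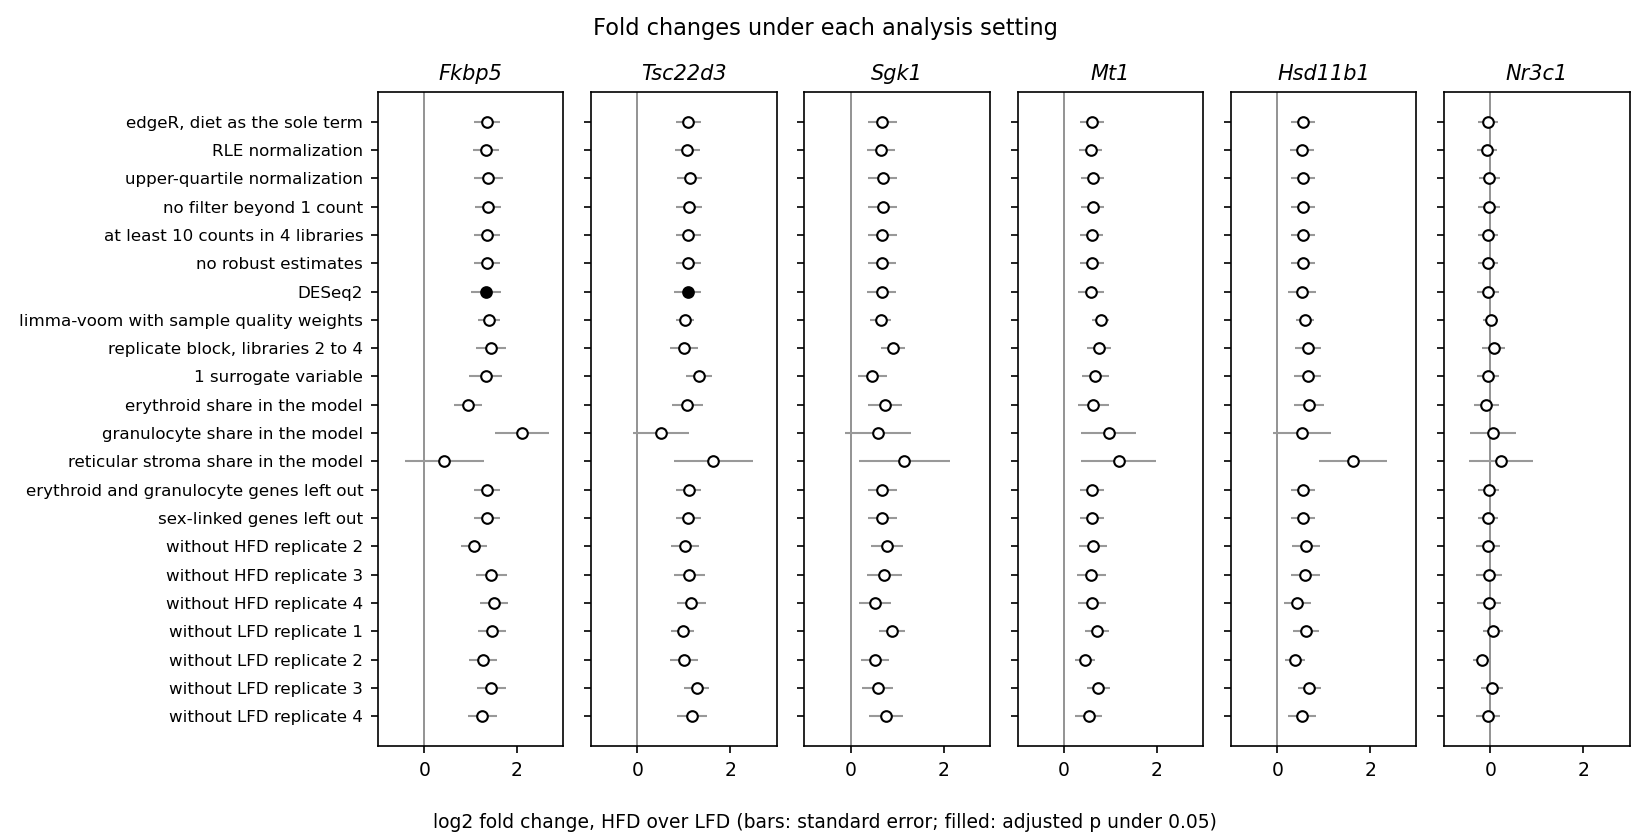
Each row is an analysis setting and each panel a gene, with the log2 fold change of HFD over LFD on the horizontal axis, bars for the standard error and filled points for an adjusted p under 0.05. Fkbp5 and Tsc22d3 are filled with DESeq2 only, and the widest bars belong to the models with the granulocyte or reticular stroma share.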

How the data were processed

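Per the labels' protocols, RNA of 7 samples was amplified by SMART-Seq v4 and prepared by Nextera XT for paired-end reads. The authors deposited raw counts per Ensembl gene, whole numbers with 1 column per library. Per the submitters' processing notes, the build was mm10, and tools included STAR 2.5.2b and HTSeq 0.11.2, with cutadapt also listed. The sources used here give no strand setting or annotation release. The kits carry no molecular identifiers, so copies made by amplification are not told apart in the counts. Standard errors and p-values come from the spread between libraries. Total counts were 17391613 to 24681838 per library, and low counts limit mainly Zbtb16 and Mt2.

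HFD was set against LFD in edgeR 4.0.16 under R 4.3.3 by its quasi-likelihood test (TMM, filterByExpr, robust fit, diet as the sole term, Benjamini-Hochberg over 14304 genes at 0.05). Standard errors are the fold change over the root of F. Log2 CPM used a prior count of 2. On simulated counts with 13573 genes, changes were placed only in genes with a mean of at least 8 CPM. The procedure recovered 2% of genes changed by log2 1 and 50% of those changed by log2 2, with 1 false call. Zbtb16 and Mt2 lay below that level, so these rates do not cover them. Alternatives, 20 planned and 1 added after seeing the data (the reticular stroma share), included DESeq2 1.42.0, limma 3.58.1 and sva 3.50.0.

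The 10 genes and all lists were chosen with earlier results of these data known. The rule for genes that may be named covered all 10 genes, the 4 members of each other list with the smallest p, the nearest profiles to Fkbp5 and Tsc22d3, the 2 most abundant genes of each cell type list and the sorting and sex-linked genes. Some of these are not reported here. C5ar1, Hsp90aa1, Bcl6, Foxo3, Slc30a1, Mtf1 and Hsd11b2 were named after their values were seen. Gene lengths and positions came from GENCODE M21, and start windows from RefSeq.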

Additional observations from a re-analysis of the deposited data

How the results depend on the processing

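The number of genes called over the whole table was 5 and depended on the setting. It was 8 with no filter beyond 1 count, 358 with DESeq2, 26 with limma-voom, 2 with 1 surrogate variable, 1 with the erythroid share in the model, and 1 to 6 with each library left out. edgeR called 0 genes with at least 10 counts in 4 libraries (988 at an unadjusted p under 0.05), with the sex-linked genes left out (1072), with the granulocyte share (375) and with the reticular stroma share (560). Of the 10 glucocorticoid response genes, 2 were called with DESeq2 and 0 under each other setting run, and 8 to 10 had a positive log2 fold change under every setting. Fkbp5, Tsc22d3, Sgk1, Mt1, Mt2, Per1 and Hsd11b1 kept a positive sign in all 21 alternatives, with Fkbp5 between 0.43 and 2.11 and Tsc22d3 between 0.51 and 1.64.

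Signs turned for Nr3c1, Klf9 and Zbtb16. Nr3c1 was positive with limma-voom (0.0050), the replicate block (0.0724), the granulocyte share (0.0563) and the reticular stroma share (0.23). With each library left out it ranged from -0.1827 to 0.0446, and it was positive without LFD 1 (0.0446) or LFD 3 (0.0241). Klf9 was negative with 1 surrogate variable (-0.0815), the erythroid share (-0.15) and the reticular stroma share (-0.995), and Zbtb16 with the granulocyte share (-0.19). The cause was not tested. With replicate number as a block, on libraries 2 to 4, edgeR called 0 genes (1342 at an unadjusted p under 0.05), and the log2 fold changes were 1.44 for Fkbp5 and 1.001 for Tsc22d3. Same-numbered libraries did not deviate together (correlations of -0.09, 0.03 and -0.06 for numbers 2, 3 and 4), and HFD 3 alone correlated best with its own number. With the longest transcript as the length, the mean levels were 104.4 CPM per kilobase for Sgk1, 95.7 for Tsc22d3, 26.1 for Hsd11b1, 16.5 for Nr3c1, 8.05 for Fkbp5 and 2.39 for Per1.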

Other observations

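Of 8 tested skeletal muscle markers, 6 had lower values in HFD and 2 higher, and 0 passed edgeR's adjusted threshold. An unadjusted p under 0.05 was seen for 2, both lower (2.35% of all genes). Myf5 and Myod1, the factors that mark muscle precursor cells, measured 37.1 ± 1.81 and 13.4 ± 4.38 CPM in HFD, against 83.5 ± 20.6 and 49.6 ± 26.1 CPM in LFD (SD, n = 3 and n = 4). Their groups did not overlap, with HFD below LFD, 2 of 8 markers (3.47% of all genes). The log2 fold changes were -1.17 ± 0.23 and -1.89 ± 0.45 (adjusted p = 0.230 and 0.285 in edgeR, 0.000476 and 0.00660 in DESeq2). DESeq2 called 2.15% of all its genes in both directions. The skeletal muscle list as a whole held 0.00798% to 0.00878% of counts in HFD and 0.0135% to 0.0232% in LFD.

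In LFD, Nr3c2, Nr1d1 and Dbp were all highest in LFD 1 and LFD 4, a split noticed after the values were seen and not tested. The adipocyte gene Adipoq measured 23.6 ± 2.31 CPM in HFD and 6.36 ± 8.86 CPM in LFD, with groups that did not overlap and an adjusted p of 0.707 in edgeR. Fabp4, another adipocyte gene, went the other way, at 1.36 ± 0.426 CPM in HFD and 4.01 ± 3.86 CPM in LFD, also without overlap (adjusted p = 0.693 in edgeR). Of 4 tested adipocyte markers, 2 separated with HFD above LFD and 1 with HFD below LFD (8.4% and 3.47% of all genes).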
